A study of Mus musculus with 6 samples.

Results

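Radial glia are the stem cells of the embryonic forebrain, and 10 genes of radial glia and of the astroglial cells that arise from them are described here. They are Aldoc, Tnc, Hopx, Slc1a3, Fabp7, Ptprz1, Ednrb, Vim, Nes and Prom1, taken by symbol from a deposited table of 24444 genes, and all 10 were in it. They were selected on their measured levels in the libraries of both genotypes, so the group differences of the 10 are given as a description, and where the 10 are counted among genes past a threshold, the count is no test of them. Telencephalon was taken at E12.5 from C57BL/6J mice, and its poly(A) RNA was sequenced in 3 wild-type libraries (WT 1 to 3) and 3 of genotype Arl13b-/- (null 1 to 3). The labels name no other allele or agent, and they give neither the kind of Arl13b allele, nor the sex of the embryos, nor how many embryos went into a library. The product of Arl13b is a GTPase found in primary cilia. The values are variance-stabilised normalized counts on a log2 scale, from which normalized counts were recovered by undoing the transformation.

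Radial glia span the wall of the neural tube, divide at the ventricle and guide migrating neurons along a basal fibre. Their cytoskeleton holds the intermediate filaments nestin and vimentin, and prominin-1 sits on apical membrane protrusions and near the cilium. As development proceeds, radial glia switch from making neurons to making glia, and genes of glutamate uptake, lipid binding and extracellular matrix are taken up by the astroglial lineage. Transcription factors of the NFI family are known to promote that switch.

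The libraries differed in ways that touch every value below. WT 1 and null 2 stood apart from the other 4, whose values correlated across genes, which are not independent replicates, at 0.985 or more. The mean of 22 cell cycle genes differed from that of WT 2 and 3 by −2.05 on the log2 scale in WT 1 and by −5.12 in null 2, and that of 18 neuron genes by 1.15 and 2.15. Results are therefore given for all 6 libraries and for WT 2 and 3 against null 1 and 3. Emx1, a transcription factor of the dorsal telencephalon, had 25.0 normalized counts in null 3 and 145 in null 1 against 633 to 1161 in WT. Nkx2-1, a factor of the ventral telencephalon, had 211 in null 3 and 935 in null 1 against 561 to 1526 in WT. Both markers of the labelled tissue were thus lower in null 3 than in any WT library. Null 2 had 2641 for Emx1 and 13.1 for Nkx2-1. Sex-linked genes also coincide with genotype among the 4 libraries. Xist had 26.5 and 213 normalized counts in WT 2 and 3 and 16292 and 19017 in null 1 and 3, so sex and genotype cannot be told apart there. WT 1, with 15101 for Xist, was on the same side as null 1 and 3, while null 2 had 244. The Y-linked Kdm5d had 1568 and 1599 in WT 2 and 3 and at most 0.618 in the other 4. Depth, estimated from the value of a single read, was between 27600000 and 51700000 reads.

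Stretches of 4 promoters are printed first because Aldoc, Tnc and Hopx had the 3 lowest differences of null 1 and 3 from WT 2 and 3, while Fabp7, a classic radial glia gene, was slightly higher there. Each ends just before the first annotated start of transcription, and each is written 5′ to 3′ on the strand of its gene, from RefSeq on build GRCm38.p6. The submitters name build mm9, and the table holds no coordinates, so these positions locate the genes only. The stretches are chr11:78322823-78322967 (+) for Aldoc, chr4:64047016-64047265 (-) for Tnc, chr5:77115124-77115373 (-) for Hopx and chr10:57784673-57784880 (+) for Fabp7. Capitals mark matches, on either strand, to TTGGCA (NFI), TGGGAA (RBPJ, the Notch effector), TGCAAAT (octamer factors) and ACGTG (core of the hypoxia response element).
Aldoc: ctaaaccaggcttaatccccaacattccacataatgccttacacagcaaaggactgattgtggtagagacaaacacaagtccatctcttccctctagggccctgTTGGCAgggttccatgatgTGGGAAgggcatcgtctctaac
Tnc: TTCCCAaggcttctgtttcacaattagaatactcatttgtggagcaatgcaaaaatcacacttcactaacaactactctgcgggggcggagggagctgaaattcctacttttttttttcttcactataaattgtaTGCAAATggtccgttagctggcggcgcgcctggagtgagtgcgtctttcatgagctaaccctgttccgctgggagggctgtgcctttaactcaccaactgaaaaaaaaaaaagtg
Hopx: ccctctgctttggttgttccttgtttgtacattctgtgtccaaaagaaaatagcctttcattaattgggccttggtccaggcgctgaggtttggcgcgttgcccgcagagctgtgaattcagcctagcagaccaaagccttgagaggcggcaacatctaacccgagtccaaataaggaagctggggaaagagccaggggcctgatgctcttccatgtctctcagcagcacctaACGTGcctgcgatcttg
Fabp7: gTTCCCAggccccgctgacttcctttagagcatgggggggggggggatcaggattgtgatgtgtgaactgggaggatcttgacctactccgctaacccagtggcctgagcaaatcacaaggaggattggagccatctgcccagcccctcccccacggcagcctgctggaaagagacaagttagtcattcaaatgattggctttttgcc

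In the 250 bases before the RefSeq start site, all 10 genes had a sequence to search. The NFI letters occurred before Aldoc alone of the 10, and 12.3% of 32817 mouse promoter windows of that length held them. The RBPJ letters occurred before Aldoc, Tnc, Fabp7 and Prom1, against 21.6% of windows. The octamer letters were found before Tnc (3.57% of windows) and the hypoxia core before Hopx (16.6%). No match was found to CCACCCA (GLI, 8.12% of windows) or ACAATG (SOX, 10.7%). None of the searched motifs overlapped another in the printed runs. A match is a description of these letters only.

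Aldoc showed the largest difference between genotypes among the 10 genes. It encodes aldolase C, the brain form of a glycolytic enzyme, which is a marker of astrocytes in the mature brain, and lies on chromosome 11 (78322968 to 78327781, GRCm38). Its normalized counts were 3240, 585 and 814 in WT 1 to 3 and 49.6, 309 and 29.5 in null 1 to 3. Every wild-type library was above every null library, with 1546 ± 1471 (SD, n = 3) against 129 ± 156 (SD, n = 3). On the variance-stabilised scale the difference, with the moderated standard error (SE) of limma, was −3.04 ± 0.84 (SE) over 6 libraries and −2.98 ± 0.19 (SE) over the 4. This scale compresses low values: in counts, WT 2 and 3 had 17.7 times the level of null 1 and 3. Without null 3, the library with little Emx1, the 4-library difference was −2.81.

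Tnc and Hopx, both known in later stages as genes of outer radial glia and astroglia, were also lower in null 1 and 3. Tnc encodes tenascin-C, a matrix glycoprotein of the germinal zone, and lies on chromosome 4 (63959785 to 64047015). It had 6639, 837 and 625 normalized counts in WT 1 to 3 and 248, 902 and 223 in null 1 to 3. The groups of 3 overlapped because null 2 lay above WT 2 and 3. The difference was −1.40 ± 0.14 (SE) over 4 libraries, where wild-type had 3.11 times the count, and −1.86 ± 0.996 (SE) over 6. Hopx encodes a small homeodomain protein without DNA binding and lies on chromosome 5 (77086988 to 77115121). It had 671, 142 and 176 normalized counts in WT 1 to 3 and 102, 148 and 50.7 in null 1 to 3. Its level in null 2 lay between those of WT 2 and 3, so the groups of 3 overlapped. The difference was −0.73 ± 0.21 (SE) over 4 libraries, −0.44 without null 3 and −1.09 ± 0.57 (SE) over 6. Exons of Hopx overlap the antisense transcript Hopxos by 412 bases and those of Tnc overlap 8030451A03Rik by 176 bases, and it is not given whether counting used strand.

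**Figure D1:**
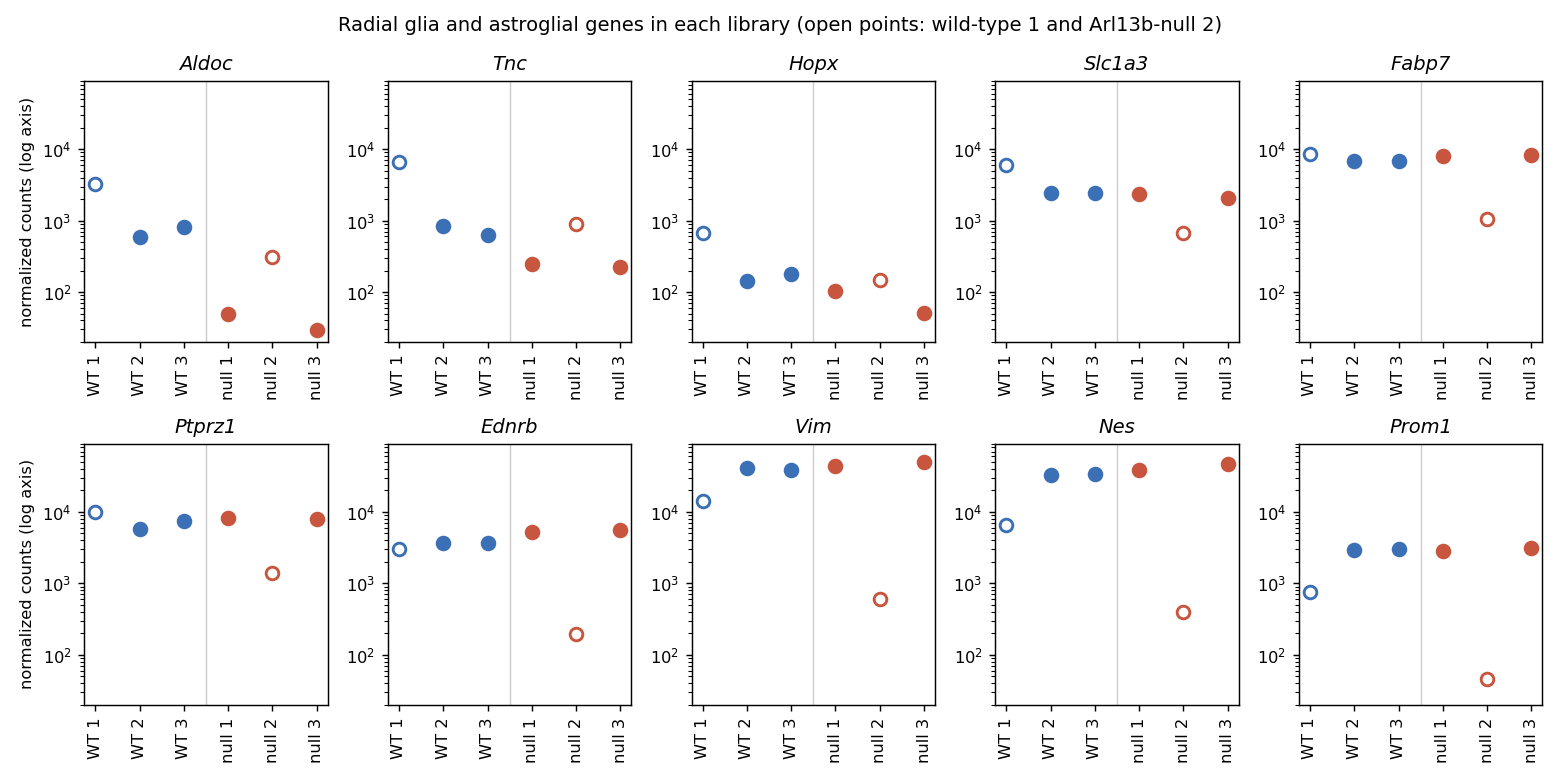
Normalized counts (log axis) of the 10 genes in the 6 libraries, wild-type (WT) in blue and null in red, with WT 1 and null 2 as open points. Aldoc is at 585 or more in WT and at 309 or less in null, while Vim, Nes and Prom1 are set apart mainly by the open points.

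Slc1a3, the glutamate transporter GLAST of radial glia and astrocytes, was nearly level in the 4 libraries. It lies on chromosome 15 (8634124 to 8710764) and had 6055, 2422 and 2436 normalized counts in WT 1 to 3 and 2375, 680 and 2102 in null 1 to 3. No null library reached the lowest wild-type value, but null 1, at 2375, was close below WT 2, at 2422. The difference was −0.12 ± 0.069 (SE) over 4 libraries and −1.09 ± 0.60 (SE) over 6. Most of the 6-library difference came with the libraries that stood apart, since WT 1 had 2.49 times the level of WT 2 and 3 and null 2 had 0.304 times that of null 1 and 3.

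Fabp7, Ptprz1 and Ednrb were higher in null 1 and 3 than in WT 2 and 3. Ednrb, the endothelin receptor B of radial glia, neural crest and astrocytes (chromosome 14, 103814625 to 103844402), had 3039, 3716 and 3685 normalized counts in WT 1 to 3 and 5225, 197 and 5529 in null 1 to 3. Both null 1 and 3 exceeded every wild-type library, and null 2 lay far below. Over 4 libraries Ednrb was higher by 0.53 ± 0.049 (SE), or 1.45 times the count, and over 6 the difference was −0.84 ± 1.23 (SE). Fabp7, the brain lipid-binding protein of radial glia (chromosome 10, 57784881 to 57788450), had 8584, 6798 and 6858 in WT 1 to 3 and 8122, 1060 and 8387 in null 1 to 3. The 4-library difference was 0.27 ± 0.045 (SE), and WT 1 was the highest library of all. Ptprz1, a receptor phosphatase whose ligand is pleiotrophin (chromosome 6, 22875502 to 23052916), had 9949, 5756 and 7429 in WT 1 to 3 and 8146, 1390 and 7861 in null 1 to 3. Its 4-library difference of 0.29 ± 0.12 (SE) ranged from 0.11 without WT 2 to 0.47 without WT 3. Over 6 libraries Fabp7 differed by −0.80 ± 0.82 (SE) and Ptprz1 by −0.73 ± 0.72 (SE), differences about the size of their standard errors.

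The intermediate filament genes were somewhat higher in null 1 and 3 than in WT 2 and 3, Prom1 was nearly level, and all 3 were very low in null 2. Nes, the filament that marks neural stem cells (chromosome 3, 87971078 to 87980451), had 6561, 32754 and 34243 normalized counts in WT 1 to 3 and 38561, 399 and 47426 in null 1 to 3. Vim, the filament of radial glia and mesenchyme (chromosome 2, 13573927 to 13582826), had 14088, 40845 and 39182 in WT 1 to 3 and 43617, 601 and 49190 in null 1 to 3. For both, null 1 and 3 were the 2 highest libraries, with 4-library differences of 0.35 ± 0.10 (SE) for Nes and 0.21 ± 0.076 (SE) for Vim. Prom1, a membrane protein of the apical surface (chromosome 5, 43993620 to 44102032), had 745, 2885 and 2996 in WT 1 to 3 and 2877, 45.1 and 3157 in null 1 to 3. It was the only gene of the 10 whose 4 libraries overlapped, with a difference of 0.035 ± 0.062 (SE). Over 6 libraries the 3 genes differed by −1.04 ± 1.93 (Nes), −1.33 ± 1.75 (Vim) and −0.97 ± 1.47 (Prom1, SE), each less than its standard error. Exons of Prom1 overlap the antisense gene Gm16401 by 424 bases.

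**Figure D2:**
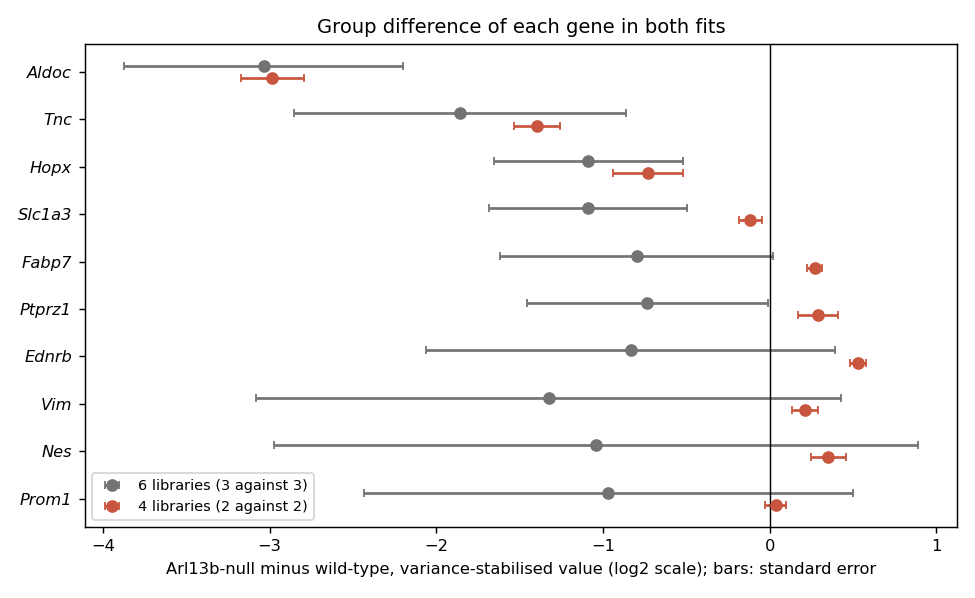
Null minus wild-type for each gene on the variance-stabilised log2 scale, with standard errors, for 6 libraries (grey) and 4 libraries (red). All 10 differences lie below 0 over 6 libraries, whereas over 4 libraries 6 lie above 0 and Aldoc, at −2.98, is the lowest.

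The direction of the list therefore depended on which libraries were compared. Over 6 libraries all 10 genes were below 0, with a median of −1.06 against 0.0026 for all genes tested, and 2 of the 10, Aldoc and Slc1a3, had groups that did not overlap, both lower, against 8.26% of all genes (3.59% lower and 4.67% higher). Of 14249 genes, 0 (0.0%) had an adjusted p under 0.05 in limma, 0 of the 10 among them, and 163 (1.14%) had an unadjusted p under 0.05, 1 of the 10 (Aldoc) among them. Over 4 libraries the median of the 10 was 0.12 against 0.023 for all genes, with 6 above and 4 below 0. Groups did not overlap for 9 of the 10, 4 lower and 5 higher, against 47.5% of all genes (18.1% lower and 29.3% higher). Of the 10, 3 were past an adjusted p of 0.05 in the fit across all genes, Aldoc and Tnc lower and Ednrb higher, where 0.253% of all genes were (0.182% lower and 0.0702% higher). These calls were lost without WT 2 or without WT 3. A fit with 1 of the 4 libraries left out sets a lone library against a pair, so no count of the 10 is given for it. When a library was left out, Aldoc ranged from −3.20 to −2.77, Tnc from −1.59 to −1.20 and Ednrb from 0.49 to 0.57. Nothing is read from the counts of the 10, because the 10 were chosen with the contrast known. In bulk tissue, fewer cells of a type and less RNA per cell cannot be told apart.

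WT 1 and null 2 split the 10 genes in a further way. In WT 1, 6 genes (Aldoc, Tnc, Hopx, Slc1a3, Fabp7 and Ptprz1) were the highest of all libraries, and 4 (Ednrb, Vim, Nes and Prom1) were below WT 2 and 3. Tnc had 9.08 times, Aldoc 4.63 times and Hopx 4.22 times the mean of WT 2 and 3, whereas Nes had 0.196 times and Prom1 0.253 times. Null 2 was the lowest library for 7 genes (all but Aldoc, Tnc and Hopx). Nes was 108-fold, Vim 77.2-fold and Prom1 66.9-fold higher in null 1 and 3 than in null 2, whereas Aldoc was 7.82 times, Tnc 3.83 times and Hopx 1.93 times as high in null 2 as in null 1 and 3. Aldoc, Tnc and Hopx were thus the 3 genes that were not lowest in the library with the fewest cell cycle transcripts.

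**Figure D3:**
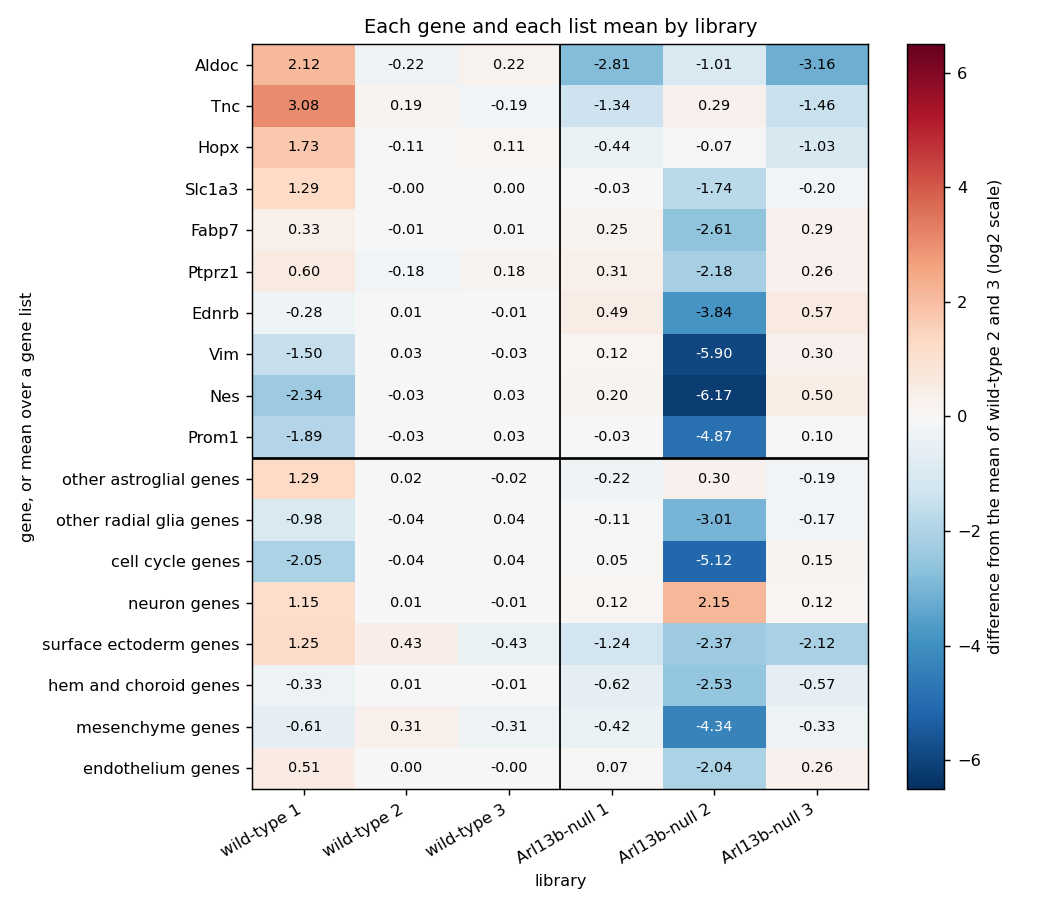
Difference of each of the 10 genes, and of the mean of 8 gene lists, from the mean of WT 2 and 3 in each library (log2 scale, colour and number). WT 1 is higher for Tnc (3.08) and Aldoc (2.12) and lower for Nes (−2.34), and null 2 is far lower for Nes (−6.17) and Vim (−5.90).

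Ratios to Slc1a3 within a library, which do not depend on scaling between libraries, were lowest in null 1 and 3 for Aldoc, Tnc and Hopx, but in null 2 they were above those of WT 2 and 3. They do depend on Slc1a3, which was lowest in null 2 (680 normalized counts) and highest in WT 1 (6055). The Aldoc count in null 2, 309, was itself below that of every WT library (585 or more). Aldoc had 53.5%, 24.2% and 33.4% of the Slc1a3 count in WT 1 to 3. The ratio was 2.09% and 1.40% in null 1 and 3 and 45.5% in null 2. Tnc was at 110%, 34.5% and 25.7% of Slc1a3 in WT and at 10.4%, 133% and 10.6% in null 1 to 3. Hopx was at 11.1%, 5.87% and 7.23% in WT and at 4.30%, 21.8% and 2.41% in null 1 to 3. The ratio of Slc1a3, a gene of radial glia and astrocytes, to Nes was 92.3% in WT 1 and 170% in null 2 but between 4.43% and 7.40% in the other 4 libraries. In null 2 both genes were at their lowest, Slc1a3 at 680 and Nes at 399 normalized counts, and Nes was lowered more.

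**Figure D4:**
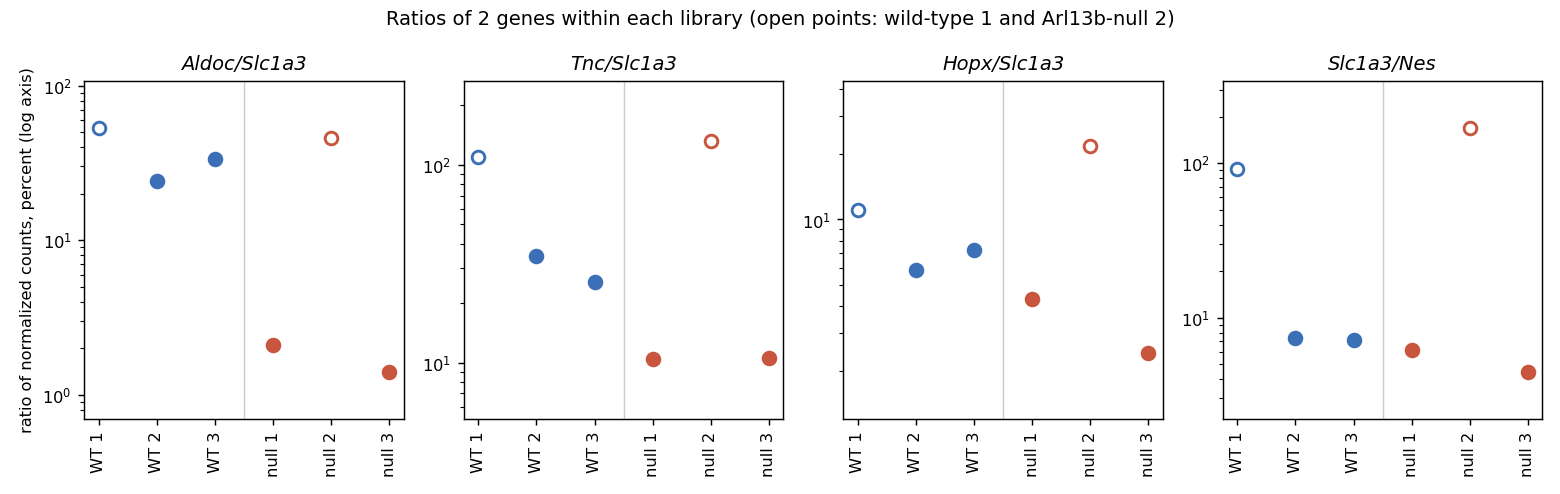
Ratio of normalized counts of 2 genes within each library, in percent on log axes, wild-type (WT) in blue, null in red and WT 1 and null 2 open. Aldoc over Slc1a3 is 1.40% to 2.09% in null 1 and 3 and 24.2% to 53.5% in WT.

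Levels per kilobase of the longest annotated transcript, in WT 2 and 3, ordered the genes as follows. Vim was highest with 13675 normalized counts per kilobase, followed by Fabp7 with 7759 and Nes with 5468. Ednrb (901), Ptprz1 (817), Prom1 (719) and Slc1a3 (548) formed a middle range. Ptprz1 spanned 713 to 921 per kilobase in these libraries, which takes in Ednrb (897 to 905) and overlaps Prom1 (706 to 733), so these neighbours did not differ beyond their spread, and neither did Hopx (113 to 140) and Tnc (88.0 to 118). Aldoc (251), Hopx (126) and Tnc (103) were lowest. In null 1 and 3 the lowest were Aldoc (14.2), Tnc (33.1) and Hopx (60.6), so Aldoc moved from eighth to last in the order.

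Relatives and binding partners of the 10 genes, a list of 44, gave no gene past the threshold in either comparison (limma, 38 tested, 10 with an unadjusted p under 0.05 over 4 libraries and 2 over 6). Of all genes, 14.4% had such a p over 4 libraries and 1.14% over 6. Aldoa, the general form of aldolase, had 11204, 8851 and 8775 normalized counts in WT 1 to 3 and 13456, 16028 and 18409 in null 1 to 3. Its groups did not overlap and its direction was opposite to that of Aldoc, at 0.83 ± 0.14 (SE) over 4 libraries (limma adjusted p = 0.108). For Slc1a3, the astroglial transporter Slc1a2 differed by 0.39 ± 0.11 (adjusted p = 0.215), Slc1a1 by −0.11 ± 0.10 and Slc1a4 by −0.014 ± 0.074. For Tnc, its relative Tnr differed by −0.17 ± 0.11, the tenascin-binding integrin gene Itga8 by −0.71 ± 0.091 (adjusted p = 0.0689) and the matrix proteoglycan gene Vcan by −0.54 ± 0.083 (adjusted p = 0.0887). Itga8 had 130, 231 and 214 normalized counts in WT 1 to 3 and 110, 56.3 and 117 in null 1 to 3, without overlap. Without null 1, 7 genes of the list passed (4 higher and 3 lower), and without null 3, 1 did.

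For Ednrb, the ligand gene Edn1 differed by 0.37 ± 0.11 (limma adjusted p = 0.251) and Edn3 by −0.050 ± 0.10 over 4 libraries. The sister receptor gene Ednra differed by −0.20 ± 0.13 and the converting enzyme gene Ece1 by 0.065 ± 0.11. Ligands of Ptprz1 were split in the libraries that stood apart: Ptn had 9874 normalized counts in WT 1 and 16673 in null 2 against 4611 to 4877 elsewhere, and Mdk had 1969 and 297 against 6217 to 7628. Over 4 libraries Ptn differed by 0.059 ± 0.044, Mdk by −0.18 ± 0.067, the neuronal binding partner Cntn1 by −0.041 ± 0.082 and the related phosphatase Ptprg by 0.066 ± 0.071. Fabp5 and Fabp3, relatives of Fabp7, differed by 0.021 ± 0.043 and 0.19 ± 0.13. Prom2, an epithelial relative of Prom1, had 214, 133 and 48.2 normalized counts in WT 1 to 3, 5.12 in null 1 and 0 in null 2 and 3. Of filament genes, Ina differed by 0.20 ± 0.070 and Des by 0.13 ± 0.11, and Gfap, the filament of mature astrocytes, had 32.6 normalized counts in WT 1, 74.6 in null 2 and 0 to 3.12 in the other 4.

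Among 36 other astroglial genes tested, of 42 listed, 2 passed the threshold as lower over the 4 libraries and none as higher. Both were transcription factors of the NFI family, and 0.182% of all genes passed as lower. At an unadjusted p under 0.05 in limma, 10 of the list were lower and 4 higher, where 14.4% of all genes had one. Nfix fell by 1.40 ± 0.092 (SE; limma adjusted p = 0.0156) and Nfib by 1.11 ± 0.11 (adjusted p = 0.0437), and Nfia differed by −0.93 ± 0.11 (adjusted p = 0.0580). Nfix had 17744, 2822 and 3219 normalized counts in WT 1 to 3 and 1178, 76203 and 1029 in null 1 to 3. Nfib had 18604, 5685 and 6876 in WT 1 to 3 and 3054, 10958 and 2667 in null 1 to 3. Null 1 and 3 were the lowest libraries for both, while null 2 lay above WT 2 and 3, as it did for Tnc. Without WT 2 or WT 3 both calls ended (adjusted p between 0.0816 and 0.125), without null 1, 7 genes of the list passed (2 higher and 5 lower), and over 6 libraries neither Nfix nor Nfib did (−0.23 ± 1.82 and −0.995 ± 0.70, adjusted p = 0.995 and 0.990). The gap junction gene Gjb6 differed by −0.96 ± 0.11 (adjusted p = 0.0568) and Ndrg2, a later astrocyte marker, by −0.85 ± 0.15 (adjusted p = 0.109). The list had 13 genes above and 23 below 0, with a median of −0.11 against 0.023 for all genes.

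Of 45 other radial glia genes, 0 passed in limma over 4 libraries, with 5 higher and 16 lower at an unadjusted p under 0.05, where 14.4% of all genes had one. Without null 1, 17 passed (4 higher and 13 lower), and without null 3, 2 did. The median was −0.057, with 17 above and 28 below 0. Emx2, a transcription factor of the cortical field, differed by −1.21 ± 0.17 (adjusted p = 0.0727) and Sfrp1, a secreted Wnt modulator, by −0.99 ± 0.17 (adjusted p = 0.110). Lhx2, which patterns the cortex, differed by −0.75 ± 0.14, Dkk3 by −0.38 ± 0.077 and Ttyh1 by −0.36 ± 0.057. Pax6, Sox2 and Sox9, transcription factors that define radial glia and were singled out after their values were seen, differed by 0.12 ± 0.14, 0.036 ± 0.086 and −0.0052 ± 0.063, and the sign of each changed with the library left out. Of 17 other outer radial glia genes, 0 passed, with 1, Crym (0.40 ± 0.11), at an unadjusted p under 0.05 and a median of 0.0085. Over 6 libraries 0 genes of these lists passed, with 4 astroglial genes and no radial glia gene at an unadjusted p under 0.05 in limma, against 1.14% of all genes.

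**Figure D5:**
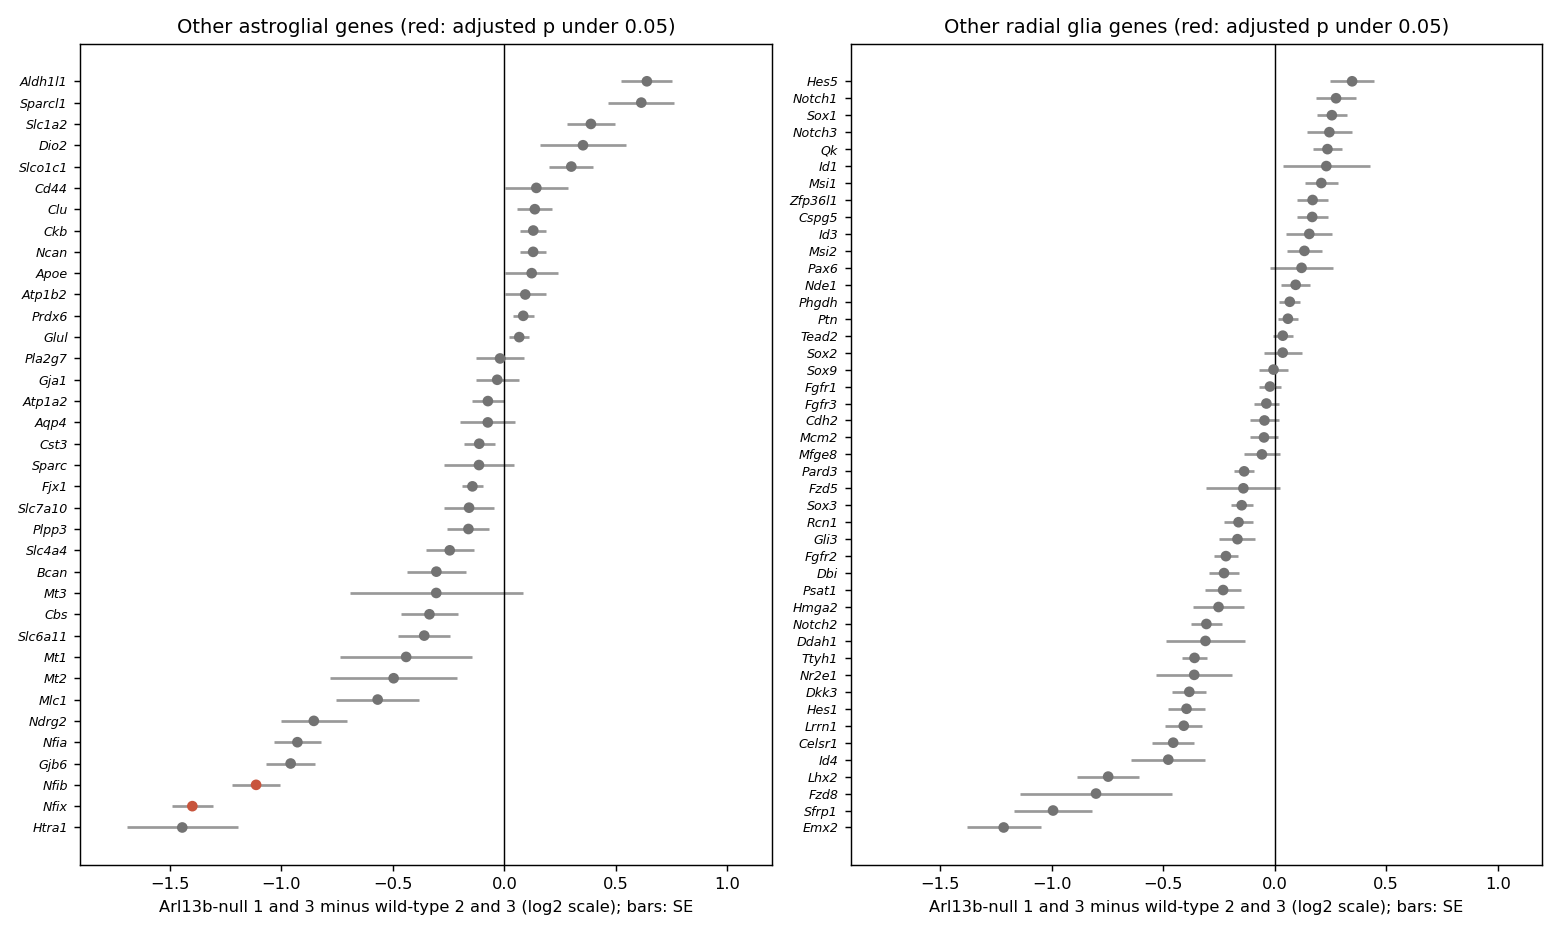
Difference of null 1 and 3 from WT 2 and 3 (log2 scale, standard errors) for 36 other astroglial and 45 other radial glia genes, each ordered by size. Nfib and Nfix, in red, had a limma adjusted p under 0.05, and Emx2 (−1.21) is the lowest radial glia gene.

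The genes nearest in profile to Aldoc and Tnc were largely genes of surface ectoderm. By distance between centred profiles over the 6 libraries, the genes most like Aldoc were Evpl (distance 1.57) and Perp (1.68), both of stratified epithelium, followed by Tnc (1.76). The genes most like Tnc were Lypd3 (0.99), Krt17 (1.12) and Lgals7 (1.163), all known from skin. Outside WT 1, Lypd3 was at 61.3 normalized counts or less, Krt17 at 29.6 or less and Lgals7 at 51.7 or less. Tnc was at 223 to 902 in those libraries. The variance-stabilised scale compresses such low values, so a short distance is not a like fold change in counts. Perp had 3796, 286 and 167 normalized counts in WT 1 to 3 and 44.3, 144 and 7.36 in null 1 to 3. The 18 surface ectoderm markers were all below 0 over the 4 libraries, with a median of −1.70. Of them 0 passed (limma, 16 at an unadjusted p under 0.05, where 14.4% of all genes had one), although this changed without null 1 or without WT 3. The summed level of the 18 lay between 2956 and 26134 normalized counts in WT and between 250 and 1201 in null. Krt5, a basal keratin, had 0 normalized counts in null 2 and 2.46 in null 3. In null 2 Tnc stood at 902 normalized counts while Krt5 was at 0. The part of these transcripts in the Aldoc and Tnc differences was not tested.

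Other cell types that express members of the list also differed among libraries. Of 21 hem and choroid plexus genes, 17 were below 0 over 4 libraries. At an unadjusted p under 0.05 in limma, 15 of the 21 were lower and 2 higher, where 14.4% of all genes had one. Ttr, Wnt2b and Clic6 passed the threshold as lower (differences of −2.50 ± 0.20, −1.09 ± 0.092 and −1.28 ± 0.12, SE, limma adjusted p = 0.0323, 0.0323 and 0.0354), where 0.182% of all genes did. None of the 3 passed without WT 2 or WT 3, and 11 genes of that list did without null 1. Of 19 mesenchyme genes, whose cells can also express Vim and Tnc, 12 were below 0 over 4 libraries. Their summed level was 44676 to 103145 in WT 1 to 3, 50578 and 59258 in null 1 and 3 and 1991 in null 2. Of 17 genes of endothelium and pericytes, whose cells can also express Vim, Nes and Ednrb, 13 were above 0 over 4 libraries. Their sum was 10356 to 16270 in WT 1 to 3, 11187 and 13187 in null 1 and 3 and 1661 in null 2. Of 9 tested genes of melanocytes and neural crest, whose cells can also express Ednrb, 6 were below 0, and Dct had 197, 118 and 168 normalized counts in WT 1 to 3 and 21.8, 2.63 and 6.77 in null 1 to 3. No mesenchyme, endothelial or neural crest gene passed over 4 libraries (limma, with 6, 4 and 4 at an unadjusted p under 0.05, where 14.4% of all genes had one). Over the same 4 libraries, 12 of 12 red blood cell genes and 10 of 12 microglia genes were above 0. Of either list 0 passed the threshold (limma, 11 and 3 at an unadjusted p under 0.05, against the same 14.4%). The summed red blood cell level was 33114 in WT 1 and 224 in null 2, against 61385 to 306653 in the other 4 libraries. In WT 1 that sum hid opposite directions, shown here by globin genes singled out after their values were seen. Hbb-y had 397 normalized counts in WT 1 and 0 in null 2, against 33298 to 160378 in the other 4. Hbb-b1 had 16579 in WT 1 and 87.5 in null 2, against 816 to 2851 in the other 4. The regional lists of 14 dorsal and 14 ventral telencephalon genes had 9 and 8 below 0. The dorsal median was −1.38 and the ventral median −0.12, against 0.023 for all genes. At an unadjusted p under 0.05 in limma, 8 dorsal genes were lower and 3 higher, and 0 ventral genes were lower and 4 higher. The same 14.4% of all genes had one. Of both lists only Neurod2 and Neurod6, both dorsal, passed the threshold, both as lower (differences of −2.26 ± 0.20 and −3.08 ± 0.28, SE, limma adjusted p = 0.0348 and 0.0354). Neither passed without WT 2 or without WT 3. Without null 1, 11 red blood cell, 11 dorsal, 5 ventral, 4 endothelial, 2 mesenchyme and 1 neural crest genes passed. The part of these cell types and regions in the values of the 10 genes was not tested.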

How the data were processed

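The deposited data, made by the authors, are variance-stabilised normalized counts on a log2 scale for 24444 genes in 6 libraries. The submitters' processing notes list, for the authors' work and with no role, build mm9, DESeq2, DESeq 1.16.1, Salmon 0.9.1, STAR 2.6.0 and CASAVA. For annotation and strand setting, nothing is given in the sources used here. The lowest value, 5.13, is that of a count of 0 and fixed the inversion to normalized counts. Between 70.2% and 79.3% of inverted low values lay within 0.05 of whole reads, so no count test was run. The depth of 27600000 to 51700000 reads comes from the value of 1 read, and low counts are imprecise.

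Genes with a mean at least 1 above the lowest value (14249) were fitted with limma 3.58.1 in R 4.3.3, moderated along a trend of variance with the mean. P-values were two-sided, adjusted by Benjamini-Hochberg over all fitted genes and called at 0.05, for 6 and for 4 libraries. The fit was tested on simulated data. Since no label says that libraries came from separate embryos, p-values measure only how these libraries vary, which may be technical. The 10 genes, the 16 other lists, the choice of 4 libraries and the tests were chosen with earlier results of these data known. The text names the 10 genes, their closest relatives and partners, up to 5 genes per list with the smallest p, and the 3 genes nearest in profile to members that differed by at least 1. Others are said to be singled out, and some items are not reported here. GENCODE M21 gave positions and lengths. Alternatives were filters, centring, quantile normalization, inverted counts with a pseudocount of 1 or 10, robust moderation, a fit with no trend, weights for libraries, a replicate block and leaving out each library.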

Additional observations from a re-analysis of the deposited data

How the results depend on the processing

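Over 6 libraries, 0 genes passed under most settings, but 3 passed with no filter, 214 with library weights, whose estimation stopped before it converged, and 110 with weights estimated gene by gene, an alternative chosen after seeing the data. Leaving out each library gave 0 to 4 genes, the highest without WT 1. Over 4 libraries 36 genes passed, against 1 with no filter, 59 with quantile normalization, 7 without the trend and 98 with robust moderation. With no filter, at most 1 of the calls of Aldoc, Tnc and Ednrb can therefore have stood. Leaving out each library gave 6 to 725 genes, lowest without WT 2 and highest without null 1, where the lone library is assumed to vary like the pair it is set against. The cause of these changes was not tested. Replicate numbers did not pair the libraries: deviations of same-numbered libraries correlated at −0.71, −0.71 and 0.62. With the replicate block 0 genes passed over 6 libraries and 111 had an unadjusted p under 0.05, and the 4 libraries share only number 3, so no block could be fitted there.

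Aldoc, Tnc and Hopx kept their sign under every setting run for either comparison, as did Slc1a3. Over 6 libraries, Ednrb, Fabp7, Nes, Prom1, Ptprz1 and Vim turned above 0 without null 2 (from 0.088 for Ptprz1 to 1.13 for Nes) and with either kind of weights. Over 4 libraries Aldoc ranged from −3.20 to −2.77, Tnc from −1.59 to −1.20, Hopx from −1.03 to −0.44 and Ednrb from 0.49 to 0.57 when a library was left out. Aldoc reached −4.14 on inverted counts with a pseudocount of 1, the scale that compresses low values least. No filter, no trend, and leaving out WT 2 or WT 3 each ended the calls of Nfix (adjusted p = 0.262 with no filter and 0.0618 with no trend), Nfib, Ttr, Wnt2b, Clic6, Neurod2 and Neurod6. Robust moderation ended those of Ttr (0.0652), Neurod2 (0.0671) and Neurod6 (0.105), and inverted counts with a pseudocount of 1 that of Neurod6 (0.0595). Quantile normalization turned the sign of Prom1 (−0.0021), Sox2 (−0.023) and Fabp5 (−0.016). Leaving out a library turned the sign of Prom1 (−0.031 to 0.10), Pax6 (−0.089 to 0.33), Sox2 (−0.072 to 0.14), Sox9 (−0.079 to 0.069), Edn3 (−0.12 to 0.020), Slc1a4 (−0.084 to 0.056), Ece1 (−0.087 to 0.22), Ptprg (−0.027 to 0.16) and Cntn1 (−0.088 to 0.0064). Without null 1, 5 astroglial genes passed lower and 2 higher, and 13 radial glia genes lower and 4 higher. Hopx did not pass the stricter filter and has no value there.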
